A study of Danio rerio with 16 samples.

Results

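Between 4 and 7 hours post-fertilization (hpf), 83 genes rose in zebrafish somatic cells while their level in primordial germ cells (PGCs) was lower or rose by less than a set limit. They were found among 34289 gene identifiers in RNA-seq libraries of PGCs and soma. A gene was taken where both soma libraries of 7 hpf held at least 10 CPM (expected counts scaled to a common library total), where the level in soma, log2(mean CPM of 2 libraries + 1), was at least 1.5 higher at 7 than at 4 hpf, and where the same change in PGCs was under 0.75. The CPM limit was met by 6639 genes, 783 of these rose in soma by the rule, and the 83 genes make up 10.6% of the 783. An upper limit of 150 genes was set for the choice and was not reached. A symbol was given for 66 of the 83 genes by the table of gene names used here, often in its human spelling, and 17 are known only by their Ensembl identifier.

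In zebrafish the egg supplies the RNA and protein for the first cleavages, and the embryo's own genes are switched on in the blastula, around the first of the stages measured. PGCs are set aside by inherited germ plasm, whose Nanos and Dead end proteins act on mRNA stability and translation, and early transcription of the zygotic genome is known to be restrained in germ cells of many animals. During gastrulation, which was under way at the second stage, somatic cells read signals such as Wnt, Fgf and Bmp and their inhibitors, and take on axial, neural and mesodermal fates while the PGCs migrate.

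PGCs and somatic cells were sorted by fluorescence from embryos of the line kop-EGFP-F-nos3'UTR, which also carries cry-DsRed and in which a maternal promoter and the *nos3* 3'UTR place farnesylated EGFP in PGCs, so both cell types carry the same transgene. Total RNA was sequenced at 4, 7, 24 and 36 hpf, each of the 8 groups being represented by 2 replicates. Embryos were raised at several temperatures, and those kept past 24 hpf were given N-phenylthiourea to stop pigment. The libraries held between 2825775 and 15633266 expected counts, and 3 counts correspond to between 0.254 and 1.06 CPM. For its germline marker expression the paper calls the 2 replicates biologically independent, but the labels do not say whether they came from separate clutches. The p-values therefore measure only the spread between these samples, part of which may be technical. In such bulk samples fewer cells of a type and less RNA per cell cannot be told apart.

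The summed level of 14 germ cell marker identifiers, among them *DDX4*, *NANOS3* and *DND1*, was between 7147.9 and 13630.0 CPM in PGCs at 4 and 7 hpf against between 124.4 and 920.7 CPM in soma. At 24 hpf it was between 600.8 and 920.0 CPM in PGCs and between 17.0 and 23.9 CPM in soma, and at 36 hpf it was 1675.2 CPM in PGC replicate 1, 5142.5 CPM in PGC replicate 2 and 17.7 CPM in both soma libraries, where *buc* was at 0. Both PGC libraries were above both soma libraries for 11 of the 14 at 4 hpf, 12 at 7 hpf and 13 at 24 and at 36 hpf. *TDRD7* was lower in PGCs at 4 hpf, at 1.99 and 2.14 CPM against 5.67 and 7.29 CPM in soma. The PGC libraries of 7 hpf also held markers of the enveloping layer, the outer sheet of the embryo: 16 of 21 identifiers had both PGC above both soma libraries, and the sum was between 10644.4 and 21413.6 CPM in PGCs against between 1220.8 and 4261.2 CPM in soma, with *icn* at 0 in soma and *krt18b* at 0 in PGCs. Of 18 skeletal muscle identifiers, all detected at 24 hpf, the sum there was between 31078.9 and 48043.9 CPM in PGCs and between 10344.5 and 47886.8 CPM in soma. None of the 83 genes is on these lists, and the part of such cells in the results was not tested. The paper estimated a high purity of the sorted PGCs, with which these sums were not compared.

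**Figure D1:**
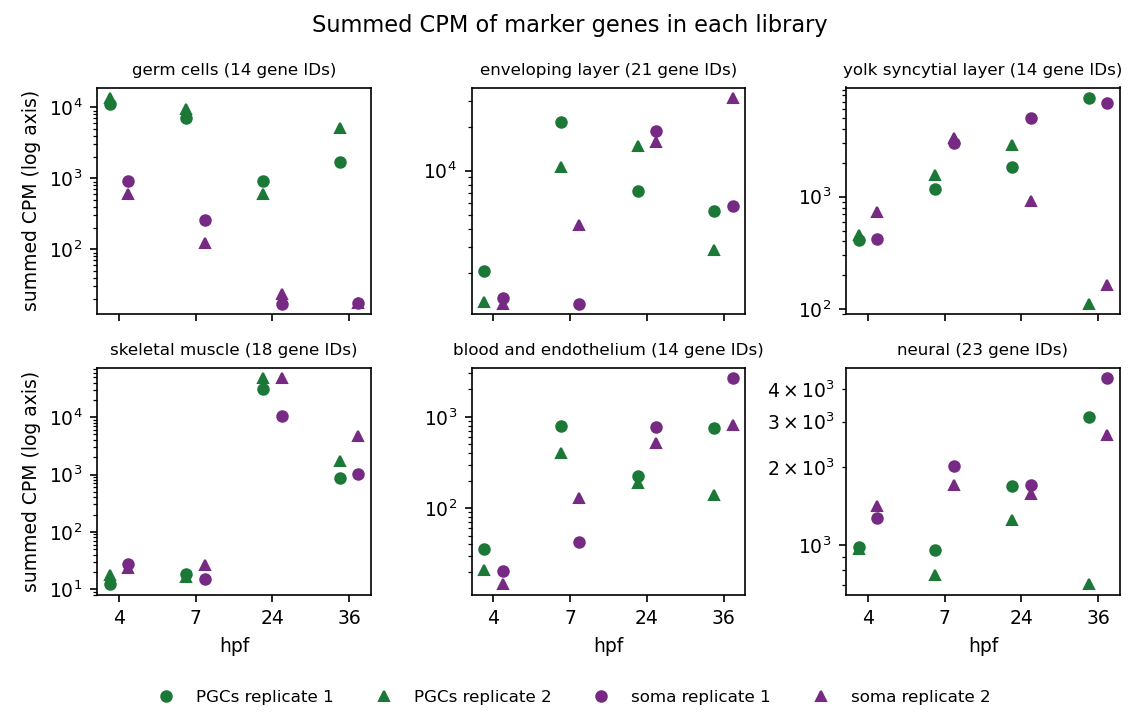
Summed CPM (log axis) of 6 lists of marker genes in each of the 16 libraries, by stage in hpf. Circles are replicate 1 and triangles replicate 2. At 36 hpf the neural sum is 3122.0 CPM in PGC replicate 1 and 702.5 CPM in PGC replicate 2, and the yolk syncytial layer sum is high in replicate 1 of both cell types.

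The values of 4 and 7 hpf chose the genes, so they are given as a description and without a test. The median change from 4 to 7 hpf was 1.82 in soma and 0.415 in PGCs on the log2(CPM + 1) scale, against 2.48 and 1.96 in the other 700 genes that rose in soma. In PGCs the mean level was lower at 7 hpf for 20 genes and higher by less than 0.75 for the others, and both PGC libraries of 7 hpf lay below both of 4 hpf for 2 genes, *SPSB4* and *OTX1*, where 26.6% of the genes tested were so placed. The limits cut through a continuous range of values. Just inside the limit on the PGC change were *tuba1c* at 0.726 and *si:ch211-196c10.15* at 0.731, and just outside were an unnamed gene at 0.751 and *RPL31* at 0.752. Just inside the limit on the soma change were *TLNRD1* at 1.506 and an unnamed gene at 1.514, and just outside were *VEZF1* at 1.495 and *znfl1i* at 1.487.

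**Figure D2:**
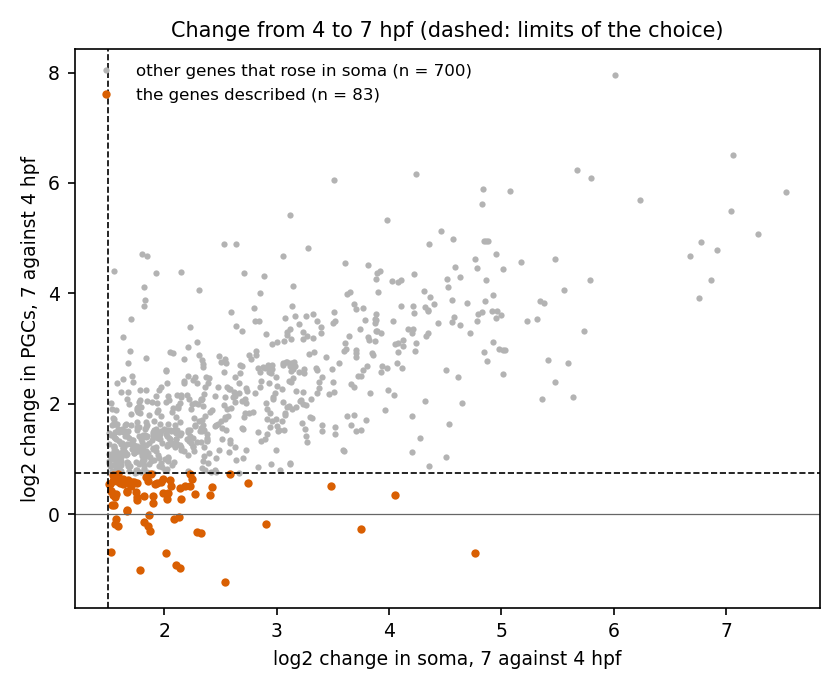
Change of level from 4 to 7 hpf, log2(mean CPM + 1), in soma (horizontal) and in PGCs (vertical) for the 783 genes that rose in soma. Dashed lines mark the limits of 1.5 in soma and 0.75 in PGCs, and the 83 genes below the horizontal line sit at the edge of a cloud that has no gap at the limit.

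The number of genes depended on the scale. CPM was computed without the 2 gene rows of highest count, which took between 0.0656% and 2.44% of the counts at 4 and 7 hpf. With normalisation by TMM, which sets libraries to a common scale through genes of intermediate change, the change from 4 to 7 hpf was larger by 0.62 in soma and by 0.20 in PGCs, so that the same limits found 309 genes, 56 of them among the 83. On TPM, which divides by transcript length and by the library's sum, they found 282 genes and shared 36. Those 36 were also the only ones of the 83 that still met the limits in soma on TPM, where all 83 met them on the TMM scale. When each of the 8 libraries of 4 and 7 hpf was left out in turn, between 59 and 76 of the 83 genes were found again, and 17 were found in all 8 cases. Among these 17 were *SPSB4*, *SP8*, *nova1*, *BCOR*, *kif15*, *RPL9*, *FZD9* and *MAT2A*, named after this count was seen. Of the genes named in that sentence, *kif15* was not found on the TMM scale, and *SP8*, *FZD9* and *MAT2A* were not found on TPM. Genes named further below were also lost. Among them *TCF7L1*, *FZD8*, *chrd*, *HES1* and *GPD1* were not found on the TMM scale. *HES3*, *FEZF2*, *SPRY4*, *MAPK8IP3* and *rasd2a* were among those not found on TPM.

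The levels of 4 and 7 hpf are given next, as values that the rule itself used. At 4 hpf the PGC mean was above the soma mean for 65 of the 83 genes, and both PGC libraries were above both soma libraries for 33, where 14.1% of the 20593 genes tested were so placed. In 25 genes the PGC mean at 4 hpf was at least 2 times the soma mean. At 7 hpf both PGC libraries were below both soma libraries for 67 genes, where 14.2% of all genes were, and in the other 16 the libraries overlapped. The median level of the 83 genes at 4 and 7 hpf was 3.86 and 4.34 in PGCs and 3.24 and 5.37 in soma. The choice by opposite limits on the same libraries favours genes that were high in PGCs or low in soma at 4 hpf, so nothing is read from these counts.

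The genes were first described as delayed in PGCs, and their later levels are given here beside that description. A PGC level at 24 or 36 hpf at least 1.5 above that of 7 hpf was seen for 20 of 83 genes (24.1%), against 23.6% of the other 700 risers and 35.3% of all genes tested. In PGCs at 24 or 36 hpf 31 genes (37.3%) reached the level that soma had at 7 hpf, against 46.4% of the other risers and 77.2% of all genes. In 6 genes (7.23%) the PGC level was lower by at least 1.5 at both later stages, against 12% and 4.82%. These comparisons start from levels of 7 hpf that the rule used, and the comparison genes were not held to the same limits. Such comparisons cannot decide whether the genes were delayed. The 83 genes are described here by the rule alone. They rose in soma by at least 1.5 by 7 hpf, and their change in PGCs was under 0.75. At 24 hpf the median level was 4.66 in PGCs and 4.77 in soma, against 5.605 and 5.868 in the other risers, in libraries that also held the skeletal muscle markers given above. The mean level differed by at least 1 for 1 gene, ENSDARG00000098170, which has no symbol and was singled out after its value was seen.

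**Figure D3:**
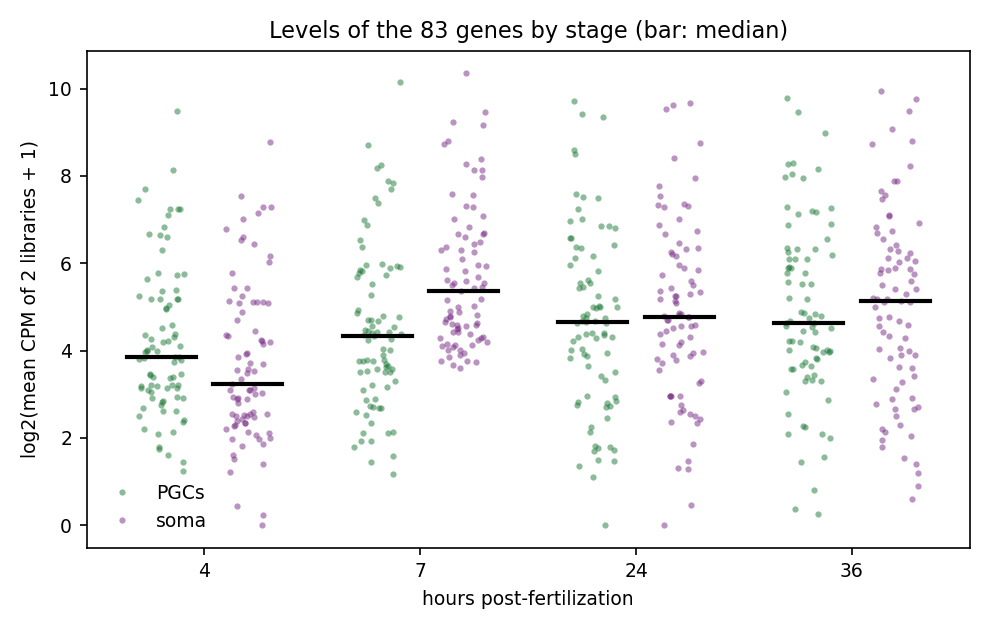
Level of each of the 83 genes, log2(mean CPM of 2 libraries + 1), in PGCs (green) and soma (purple) at 4, 7, 24 and 36 hpf. Black bars are medians. The medians are 4.34 in PGCs and 5.37 in soma at 7 hpf and 4.66 and 4.77 at 24 hpf.

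The 2 genes with the largest difference between the changes in soma and PGCs were near 0 in soma at 4 hpf. The first in order, ENSDARG00000099418, which has no symbol, was at 0 in both soma libraries of 4 hpf and at 27.99 and 24.3 CPM at 7 hpf, while PGCs held 7.13 and 5.10 CPM at 4 hpf and 0 and 6.72 CPM at 7 hpf. *HES3* (ENSDARG00000076857), a transcriptional repressor of the Hairy and Enhancer of split family, was at 0 and 0.729 CPM in soma at 4 hpf and at 19.9 and 14.9 CPM at 7 hpf. In PGCs *HES3* was at 0 and 3.43 CPM and then at 1.04 and 1.45 CPM, so no PGC library came near the soma level of 7 hpf. By 24 and 36 hpf all libraries of both cell types held at most 3.18 CPM of *HES3*.

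Forebrain and neural regulators stood among the genes. *FEZF2* (ENSDARG00000070677), a zinc finger repressor of the forebrain, rose in soma from 0.354 and 0 CPM, less than 3 counts in each library, to 13.4 and 23.6 CPM, while PGCs were at 1.42 and 1.28 CPM and 0.208 and 3.78 CPM. The soma libraries of 7 hpf were above every PGC library of both stages. *OTX1* (ENSDARG00000094992), a homeodomain factor of the anterior brain, went the opposite way in the 2 cell types. In PGCs it was at 152 and 74.1 CPM at 4 hpf and at 54.01 and 56.7 CPM at 7 hpf, while soma went from 76.9 and 30.6 CPM to 187 and 188 CPM. *SP8* (ENSDARG00000056666), a zinc finger factor that acts in limb and brain development, was at 12.8 and 20.2 CPM in soma and at 0.623 and 4.94 CPM in PGCs at 7 hpf. On a list of 49 neural and SoxB regulators 13 identifiers rose in soma, and *FEZF2* and *OTX1* were among its members here. The summed level of 23 other neural marker identifiers at 7 hpf was between 1709.5 and 2020.9 CPM in soma and between 763.7 and 954.2 CPM in PGCs. It was already lower in PGCs at 4 hpf, between 965.8 and 979.2 CPM against between 1265.4 and 1416.6 CPM in soma. The markers differed among themselves. In soma *SOX2* went from 0 and 0.486 CPM to 87.4 and 43.0 CPM, while *SOX3* went from 201 and 228 CPM to 198 and 165 CPM. At 7 hpf 9 identifiers were lower and 2 higher in PGCs without overlap. *GNG3*, *NEUROD1*, *GFAP*, *PAX2*, *FABP7*, *ELAVL4* and *PAX6* were listed with an identifier at 0 in PGCs. Of these, *NEUROD1*, *FABP7* and *ELAVL4* were also at 0 in soma. The part of neural cells in these values was not tested.

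Of the Wnt pathway, 4 of the 17 genes that rose in soma, among 36 listed, were in the group: a ligand, a pair of receptors and a nuclear factor. *WNT8A* (ENSDARG00000052910), the ligand of the ventrolateral margin, changed by 2.02 in soma and by -0.70 in PGCs. Its PGC libraries of 7 hpf were far apart, at 45.01 and 0 CPM, and replicate 1 lay within the soma range of 26.02 and 65.1 CPM, so the cell types overlapped at that stage. The Frizzled receptor *FZD9* (ENSDARG00000014673) was at 6.82 and 9.85 CPM in PGCs at 4 hpf and 13.9 and 8.14 CPM at 7 hpf, and at 2.13 and 10.9 CPM and then 31.5 and 39.3 CPM in soma. The receptor *FZD8* (ENSDARG00000045444) reached 171 and 138 CPM in soma at 7 hpf and 84.8 and 39.8 CPM in PGCs. *TCF7L1* (ENSDARG00000038159), a repressor of Wnt targets in the absence of the signal, had tight replicates: 154 and 119 CPM and then 212 and 199 CPM in PGCs, against 125 and 129.6 CPM and then 424 and 427 CPM in soma. The change was 1.73 in soma and 0.59 in PGCs, where both libraries of 7 hpf were above both of 4 hpf.

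Organizer and dorsal genes gave 4 of the 12 risers among 32 listed, *chrd*, *FZD8*, *OTX1* and *DACT1*. *chrd* (ENSDARG00000006110), which encodes the Bmp antagonist Chordin, was at 271 and 293 CPM in PGCs at 4 hpf, above the 154 and 159 CPM of soma. At 7 hpf soma held 544 and 659.6 CPM and PGCs held 552 and 281 CPM, so PGC replicate 1 was level with soma and replicate 2 was where it had been at 4 hpf. *DACT1* (ENSDARG00000101635), a modulator of Dishevelled, was at 62.1 and 59.3 CPM in PGCs and at 65.2 and 106 CPM in soma at 7 hpf. *SPRY4* (ENSDARG00000068732), an inhibitor of Fgf signalling induced by it and 1 of 7 risers of the Fgf list of 28, went from 6.73 and 17.7 CPM to 46.1 and 45.4 CPM in soma and from 18.2 and 41.3 CPM to 42.8 and 32.3 CPM in PGCs. Its soma libraries of 7 hpf lay barely above the higher PGC library of that stage.

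Further members were signalling genes. *ACKR3* (ENSDARG00000058179), an atypical receptor that takes up the Cxcl12 chemokine which guides migrating PGCs, was the only member among 18 risers on a list of 67 adhesion, matrix and movement genes. It reached 45.8 and 49.9 CPM in soma and 20.98 and 9.60 CPM in PGCs at 7 hpf, after 12.04 and 8.26 CPM and 29.00 and 2.78 CPM at 4 hpf. The PGC libraries of 4 hpf thus lay on either side of both soma libraries. *SPSB4* (ENSDARG00000016084), an adaptor of ubiquitin ligases, was higher in soma at 7 hpf than in any other library of 4 and 7 hpf, at 62.2 and 94.9 CPM, and in PGCs it was at 43.5 and 26.8 CPM and then at 16.2 and 19.8 CPM. *rasd2a*, a small GTPase of the Ras family, was at 15.8 and 16.7 CPM in soma and 4.78 and 0.873 CPM in PGCs at 7 hpf.

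No member came from the lists of mesoderm and endoderm regulators (15 risers in soma among 30), ventral and epidermal regulators (14 of 46), Notch and hairy genes (10 of 29), retinoic acid genes (7 of 20), Nodal and TGF-beta genes (5 of 32), chromatin genes (3 of 33), ribosome biogenesis genes (7 of 43), p53 and stress genes (1 of 28) or pluripotency and first-wave genes (2 of 33). *HES1* and *HES3* are of the hairy family by name but were not on the Notch list as it was written. The lists hold few genes, and no test was made of their counts.

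Grouped by known role after the members had been seen, 17 were transcription regulators, 13 signalling genes, 11 genes of the cytoskeleton, adhesion and matrix, 9 of metabolism, transport and folding, and 8 of the machinery of transcription, splicing and translation, and 25 were left without a role. The median change in PGCs was 0.348 for transcription regulators and 0.321 for signalling genes, and 0.597 for the machinery genes, whose median change in soma was 1.60. *RPL9* (ENSDARG00000037350), a protein of the large ribosomal subunit, was at 90.98 and 107 CPM in PGCs and 85.7 and 85.6 CPM in soma at 4 hpf, and at 140.2 and 114 CPM and 244 and 258 CPM at 7 hpf. *RPL10* (ENSDARG00000025581), of the same subunit, was at 186 and 147 CPM in PGCs and 341 and 324 CPM in soma at 7 hpf. These were the 2 members among 34 risers on a list of 82 ribosome and translation genes, and *RPL31* fell just outside the limit.

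*BCOR* (ENSDARG00000017798), a corepressor of Polycomb complexes, and *kif15*, a kinesin of the mitotic spindle, were chosen after their values were seen. *BCOR* was at 98.8 and 84.1 CPM in soma at 4 hpf and at 300.1 and 322 CPM at 7 hpf, while PGCs went from 165 and 133 CPM to 162 and 195 CPM. The 4 libraries of each stage did not overlap between the cell types, with PGCs above at 4 hpf and below at 7 hpf. *kif15* (ENSDARG00000012073) overlapped between the cell types at 4 hpf, with 80.5 and 75.2 CPM in PGCs and 61.6 and 80.5 CPM in soma. At 7 hpf it was at 117 and 116 CPM in PGCs and 242 and 319.7 CPM in soma. The metabolic gene *MAT2A* (ENSDARG00000037121), which encodes the enzyme that makes S-adenosylmethionine, was at 17.99 and 10.8 CPM in soma and 3.74 and 1.16 CPM in PGCs at 7 hpf. *MAPK8IP3*, a scaffold of Jnk signalling and axonal transport, was at 19.6 and 21.4 CPM in soma and 2.91 and 8.14 CPM in PGCs, and *si:ch73-141c7.1*, which has no clear name, at 34.7 and 22.2 CPM and 14.1 and 9.60 CPM.

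After 7 hpf the members followed different courses. In soma 16 genes (19.3%) were lower by at least 1.5 at both 24 and 36 hpf than at 7 hpf, against 16.6% of the other 700 risers. The rule required a high soma level at 7 hpf, so falls from it are given as description only. Among the 16 genes were *HES3*, *OTX1*, *WNT8A*, *chrd*, *rasd2a* and *VRTN*. Of these, *OTX1*, *WNT8A*, *chrd*, *rasd2a*, *VRTN* and *SLC2A8*, a sugar transporter, were lower by as much in PGCs as well, and they are the 6 genes noted above. *chrd* was at 6.88 and 4.196 CPM in PGCs and 5.62 and 4.89 CPM in soma at 24 hpf, a small part of the 7 hpf level in both.

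In PGCs 16 genes (19.3%) were at least 1.5 higher at both 24 and 36 hpf than at 7 hpf, against 13.7% of the other 700 risers. The rule limited the PGC rise by 7 hpf, so rises from that level are given as description only. Among the 16 genes were *SP8*, *MAT2A*, *MAPK8IP3*, *SEMA4C*, *FBLN2*, *tuba1c*, *HHIP*, *NAV2*, *TIAM2*, *RPL9*, *RPL10* and *EEF1D*. *SP8* was at 27.6 and 23.8 CPM in PGCs and 23.3 and 22.2 CPM in soma at 24 hpf. *tuba1c* (ENSDARG00000055216), an alpha-tubulin, was at 2.22 and 5.92 CPM in PGCs at 7 hpf and at 209.6 and 152 CPM at 24 hpf, next to 159 and 161 CPM in soma. *FBLN2*, *tuba1c*, *HHIP*, *NAV2*, *RPL9* and *EEF1D* were also at least 1.5 higher in soma at 24 or 36 hpf than at 7 hpf. *SP8*, *MAT2A*, *MAPK8IP3*, *SEMA4C*, *TIAM2* and *RPL10* were not. The skeletal muscle marker sum in PGCs, given above for 24 hpf, was between 16.3 and 18.1 CPM at 7 hpf. At 36 hpf it was between 872.9 and 1727.6 CPM, far under that of 24 hpf. The part of muscle cells in the levels of these genes was not tested.

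**Figure D4:**
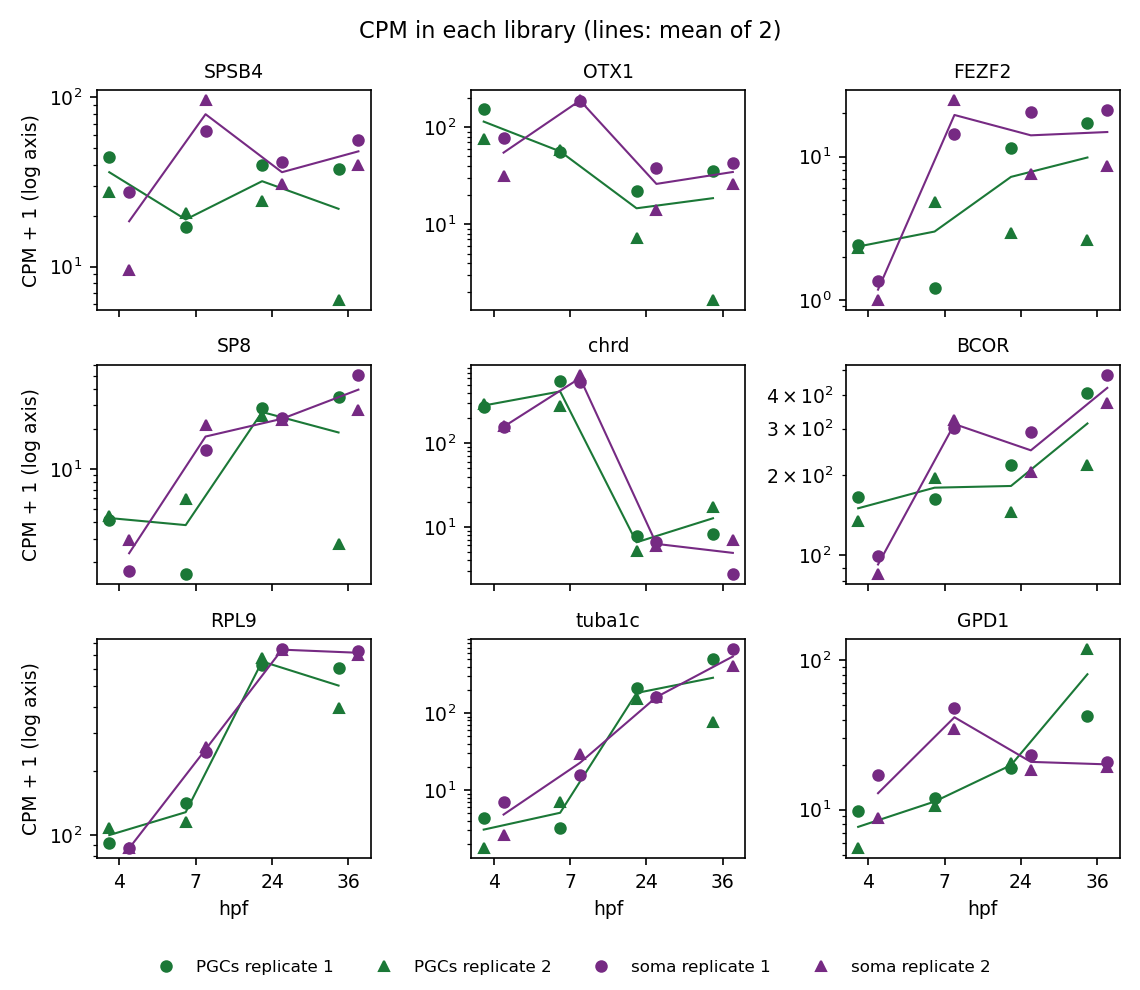
CPM + 1 (log axis) of 9 of the 83 genes in every library by stage in hpf, PGCs in green and soma in purple, circles for replicate 1, triangles for replicate 2 and lines through the means of the 2 libraries. *OTX1* and *SPSB4* fall in PGCs and rise in soma by 7 hpf, and at 36 hpf PGC replicate 2 lies far below the other libraries for *OTX1*, *SP8* and *SPSB4*.

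The libraries of 24 and 36 hpf took no part in the choice and were tested with edgeR's quasi-likelihood fit over all 16 libraries, with a gene called at a Benjamini-Hochberg adjusted p under 0.05 and a log2 fold change past 1.5. At 24 hpf none of the 83 genes was called lower or higher in PGCs than in soma, where 0.0% and 0.034% of the 20593 genes tested were. With an unadjusted p under 0.05 and the same fold limit, 0 were lower and 0 higher, against 0.675% and 2.02% of all genes, and DESeq2 called 0 and 0, against 0.0486% and 0.18%. The median log2 fold change was -0.14 for the 83 genes, 0.00 for all genes and -0.18 for the other 700 risers, and single values lay between -1.22 and 1.51. The skeletal muscle marker sum at 24 hpf was between 31078.9 and 48043.9 CPM in PGCs and between 10344.5 and 47886.8 CPM in soma. The germ cell marker sum in these PGC libraries was between 600.8 and 920.0 CPM. Other lists stood differently at 24 hpf. Both PGC libraries were below both soma libraries for 12 of 14 blood and endothelium and 13 of 21 enveloping layer identifiers, and above for 0. Of 23 neural identifiers 2 were above and 2 below, and of 14 yolk syncytial layer identifiers 3 and 3. The part of muscle or other cells in this comparison was not tested. Among the 71 genes with a mean of at least 5 CPM at 24 hpf, *FEZF2* had the lowest difference of mean level, with 10.5 and 1.91 CPM in PGCs and 19.6 and 6.52 CPM in soma. Its libraries overlapped, replicate 1 being the higher in both cell types, and the log2 fold change was -1.04 ± 1.09 (standard error; edgeR adjusted p = 1.0). *OTX1* was at 21.02 and 6.23 CPM and 37.3 and 12.9 CPM with the same order of replicates. *ZDHHC3*, a palmitoyl transferase, was the third among these, at 7.40 and 4.83 CPM in PGCs and 12.2 and 9.33 CPM in soma, a log2 fold change of -0.79 ± 0.52. At the other end *MAPK8IP3* was at 39.1 and 31.03 CPM in PGCs and 23.1 and 20.7 CPM in soma (0.70 ± 0.52), and *TXN2*, a mitochondrial thioredoxin, at 32.8 and 41.5 CPM and 24.7 and 25.04 CPM (0.62 ± 0.54). Both had no overlap between the groups, and neither passed the test (edgeR adjusted p = 1.0). *ZDHHC3* had no overlap either. In all, 12 of the 83 genes (14.5%) were lower in PGCs without overlap, and 5 (6.02%) were higher. Of the other 700 risers 22.9% were lower and 5.14% higher in this way.

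At 36 hpf none of the 83 genes was called lower (0.0194% of all genes) or higher (0.602%) in PGCs than in soma. The median log2 fold change was -0.57, against 0.06 for all genes and -0.59 for the other risers. Of the 83 values 60 were below 0, where 9730 of 20593 were over all genes. Without TMM the median of the 83 genes was -0.196. With an unadjusted p under 0.05 and the fold limit, *HES1* and *SPRY4* were lower (2.59% of all genes) and *GPD1* was higher (6.58%), and DESeq2 called *HES1* lower (0.733% of all genes) and *GPD1* higher (2.2%). *HES1* (ENSDARG00000006514), a repressor downstream of Notch, was at 19.6 and 15.3 CPM in PGCs and 35.7 and 114 CPM in soma. Both PGC libraries were below both of soma, which differed widely from each other, and the log2 fold change was -2.46 ± 0.66 (edgeR adjusted p = 0.119; DESeq2 adjusted p = 0.0129). *SPRY4* was at 28.6 and 16.9 CPM in PGCs and 33.5 and 80.7 CPM in soma (-1.67 ± 0.59, edgeR adjusted p = 0.208). *GPD1* (ENSDARG00000043180), a glycerol-3-phosphate dehydrogenase, was at 41.2 and 117 CPM in PGCs and 19.8 and 18.3 CPM in soma, so that both PGC libraries were above soma, and replicate 2 far above (1.64 ± 0.46, edgeR adjusted p = 0.136; DESeq2 adjusted p = 0.0358). *CBFA2T2*, a transcriptional corepressor, was at 125 and 26.2 CPM in PGCs and 218 and 135 CPM in soma (-1.48 ± 0.61). *chrd* was at 7.11 and 16.2 CPM in PGCs and 1.72 and 6.04 CPM in soma (1.17 ± 0.52), at a small part of its earlier level.

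Among the fits tried, the median log2 fold change of the 83 genes at 36 hpf moved furthest, from -0.567 to -1.193, without PGC replicate 1. This library had a lower germ cell marker sum than PGC replicate 2, as given above, and the neural marker sum in it was 3122.0 CPM, within the soma range of 2655.8 to 4424.7 CPM, against 702.5 CPM in PGC replicate 2. None of the 23 neural identifiers was at 0 in both libraries of either cell type, and 5 were lower in both PGC than in both soma libraries. Of 14 yolk syncytial layer identifiers *TTR* and *mxtx1* were at 0 in all 36 hpf PGC and soma libraries, and the sum was 7592.7 CPM in PGC and 6824.2 CPM in soma replicate 1, and 111.0 and 164.6 CPM in replicate 2. *OTX1* and *SP8* divided in the same way as the neural markers, whose part in the result was not tested. *OTX1* was at 34.5 and 0.671 CPM in PGC replicates 1 and 2 and at 42.1 and 25.1 CPM in soma. *SP8* was at 33.8 and 1.75 CPM in PGCs and 49.9 and 26.8 CPM in soma. In both genes PGC replicate 1 lay within the soma range and replicate 2 far under it, and each PGC library was below the soma library of the same number.

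Without PGC replicate 1, which leaves replicate 2 alone and assumes that it varies like the other groups, edgeR called 13 of the 83 genes lower in PGCs at 36 hpf, where 4.71% of 21996 genes were, and 1 higher, where 2.54% were. Among the 13 genes were *SP8*, *SPSB4*, *OTX1*, *nova1*, *GLI2*, *tuba1c*, *BCOR*, *CBFA2T2*, *NAV2* and *CCT6B*, and the gene called higher was *GPD1*. The log2 fold change was -6.16 ± 0.97 for *OTX1* (edgeR adjusted p = 0.00171), -5.01 ± 1.03 for *SP8* (0.0084) and -3.70 ± 0.64 for *SPSB4* (0.00326). *tuba1c*, at 496 and 74.5 CPM in PGCs and 674 and 406 CPM in soma, was lower, with a log2 fold change of -3.44 ± 0.67 (0.00661). *nova1*, a neuronal splicing factor, was at 62.5 and 9.26 CPM in PGCs and 92.9 and 44.8 CPM in soma, and *GLI2* (ENSDARG00000020884), a transcription factor of Hedgehog signalling, at 107 and 51.3 CPM and 138 and 136 CPM. *GPD1* was higher by 2.04 ± 0.49 (0.0185). The median of the 83 genes became -1.19, against 0.01 for all genes. Here PGC replicate 2 stands against soma replicates 1 and 2 together, so a difference by replicate number enters the comparison. In soma at 36 hpf replicate 2 was below replicate 1 for *OTX1*, *SP8*, *nova1* and *tuba1c*, and near it for *GLI2* and *GPD1*. The part of this difference in the fit was not tested. The other 700 risers were not summarised in this fit. With all libraries their median was -0.59, beside -0.57 for the 83 genes, so the lower level is not shown to be particular to the 83. Without PGC replicate 2 in its place, 0 of the 83 genes were called lower (0% of all genes) and 0 higher (0.149%).

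**Figure D5:**
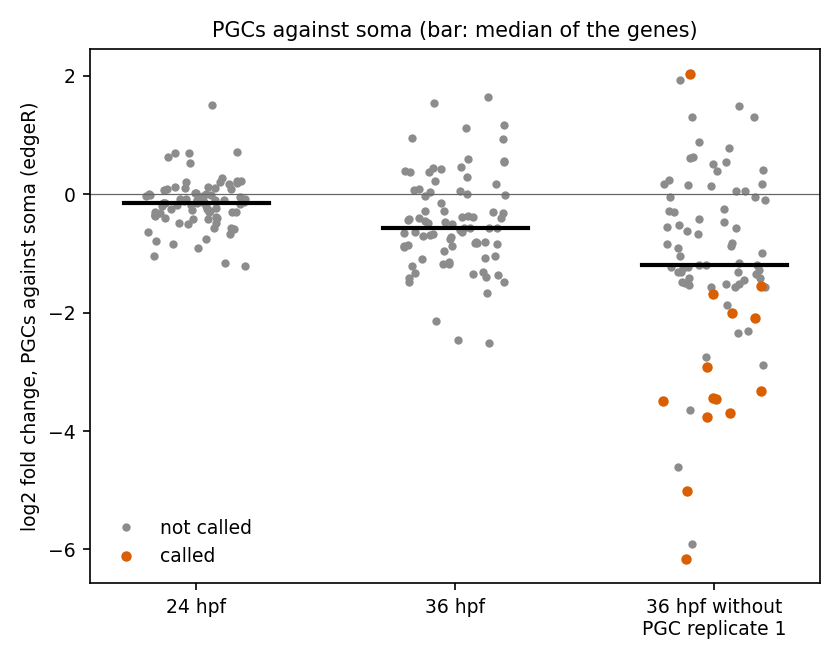
Log2 fold change of PGCs against soma for each of the 83 genes (edgeR) at 24 hpf, at 36 hpf with all libraries, and at 36 hpf without PGC replicate 1. Bars are medians, at -0.14, -0.57 and -1.19, and genes called are orange, of which there are none in the first columns and 14 in the last.

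Within a cell type, none of the 83 genes was called between 24 and 36 hpf, in soma (0.0% of all genes lower and 0.0% higher) or in PGCs (1.48% lower and 0.233% higher). In soma, with an unadjusted p under 0.05 and the fold limit, 0 were lower (3.84% of all genes) and *nova1* and *tuba1c* were higher (2.81%). *tuba1c* went from 159 and 161 CPM to 674 and 406 CPM without overlap (1.55 ± 0.72, edgeR adjusted p = 0.479), and *nova1* from 13.5 and 21.2 CPM to 92.9 and 44.8 CPM (1.75 ± 0.69, edgeR adjusted p = 0.385). In PGCs by the same limits *MYADM* and a gene without a symbol were lower (5.73%) and 0 were higher (3.13%). *MYADM*, a membrane protein gene named after its value was seen, went from 43.3 and 48.6 CPM to 19.9 and 21.1 CPM in PGCs (-1.75 ± 0.49, edgeR adjusted p = 0.0919; DESeq2 adjusted p = 0.0122). DESeq2 called 0 lower (1.07% of all genes) and 0 higher (0.427%) in soma, and in PGCs it called *MYADM* lower (3.42%) and 0 higher (0.923%). Without PGC replicate 1 of 36 hpf, edgeR called 9 lower (3.2%) and 1 higher (0.677%) in PGCs.

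The difference between the stages, tested as the interaction of cell type with stage, passed the adjusted threshold for 0 of the 83 genes and for 0 of 20593 genes in edgeR, and had an unadjusted p under 0.05 for 1 of the 83, *GPD1*, and for 4.171% of all genes. Of 36 Wnt genes tested 0 were called at 24 or 36 hpf between the cell types, and the median log2 fold change was -0.23 and -0.75. Of 48 neural and SoxB regulators 0 were called, with medians of -0.21 and -1.13, and of 31 organizer and dorsal genes 0 were called, with medians of -0.34 and -0.83. Of 82 ribosome and translation genes 0 were called between the cell types, with medians of 0.04 and -0.77, and in PGCs 5 of them were called lower at 36 than at 24 hpf, as were 3 of the 31 organizer and dorsal genes, 1 of the 36 Wnt genes and 0 of the neural and SoxB regulators, where 1.48% of all genes were. The low medians at 36 hpf stand beside the neural and germ cell marker values of the PGC libraries of that stage, whose part in them was not tested.

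The transcripts of the 83 genes were of ordinary length. The median effective length was 2135.6 bases, with quartiles of 1176.4 and 3522.9, against 1802.6 bases in all genes tested, and 2184.3 in the other risers. Symbols shared by a second identifier, such as *FZD8*, *FZD9*, *SP8*, *GLI2*, *WNT8A*, *ACKR3* and *MAT2A*, may stand for near relatives among which the counting could divide reads, so their counts are less certain.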

How the data were processed

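RNA-seq of sorted PGCs and soma was used, 2 libraries in each of 8 groups. Soma 24 hpf replicate 1 is called PGCs in a single label and soma in its title and cell type, and was used as soma. Per the labels and the study's methods the authors trimmed with Trim Galore, aligned to danRer10 with STAR and quantified with RSEM. The deposited expected counts are not normalised, and 95.157% are whole. The deposited TPM values served only as an alternative scale, and the deposited effective lengths are in bases. RSEM divides multiply matching reads among genes, and the strand setting is not given in the sources used here.

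The 92 spike-in rows hold no counts. The 2 rows of highest count were left out of CPM and of the fit, since they took up to 39.1% of a library. Counts were rounded and filtered with filterByExpr (minimum count 10, total 15), which left 20593 genes, and fitted in edgeR 4.0.16 (R 4.3.3) with TMM, glmQLFit and glmQLFTest over 8 groups. DESeq2 1.42.0, no TMM, no filter, the high-count rows kept, a fit of 8 libraries, a replicate block and leaving out each library were alternatives. The fit was tested on simulated counts with known PGC to soma changes in 200 genes. At 24 and 36 hpf it called 27% and 26% of log2 changes of 2. Of log2 changes of 3 it called 63% and 64%, with 11 and 14 false calls. A gene that was not called may therefore still differ.

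The genes and the lists were chosen with earlier results of these data known. Named were, among members with a symbol, the 10 of largest difference between soma and PGC changes, up to 4 per list, any called in a tested contrast, the 3 highest and 3 lowest PGC minus soma differences at 24 and at 36 hpf among genes whose mean reached 5 CPM, and the 2 genes on each side of a limit. Genes outside this rule are said to be so in the text or were named in counts of 20 or fewer after their values were seen. Standard errors come from the edgeR fit and include its estimate of the spread between replicates, while depth floors cover counting error only. Sequences of the genes were not used here, and not every gene that the rule names is reported here.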

Additional observations from a re-analysis of the deposited data

How the results depend on the processing

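The number of genes that met the limits moved most with scale and limits: 309 on TMM-normalised CPM, 282 on TPM, 324 with a soma change of at least 1, 28 with at least 2, 46 with a PGC change under 0.5 and 152 with one under 1 (the last 4 chosen after seeing the data), and from 86 to 143 with a library left out. With the 2 high-count rows kept, 87 were found and 76 shared, and with an offset of 5 in place of 1, 67 were found and 43 shared. In the tests, no filter on low counts called 4 of the 83 lower in PGCs at 36 hpf (1.83% of 27452 genes), 2 higher at 36 than 24 hpf in soma (0.933%) and 1 lower at 36 than 24 hpf in PGCs (3.53%). DESeq2 called 1 lower (0.733% of all genes) and 1 higher (2.2%) in PGCs at 36 hpf, and 1 lower at 36 than 24 hpf in PGCs (3.42%). Without TMM 2 were higher at 36 than 24 hpf in PGCs (1.67% of all genes), and the median log2 fold change there was 0.327, the opposite sign of the -0.25 with TMM; the TMM scale lies -0.58 from the CPM scale in that comparison and -0.37 in that of PGCs with soma at 36 hpf. The cause of these shifts was not tested.

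With a library left out, the count called in PGCs against soma at 36 hpf went from 0 to 13 lower and from 0 to 1 higher, and the median from -1.193 to -0.359. At 36 against 24 hpf in PGCs it went from 0 to 9 lower and from 0 to 1 higher, with medians from -0.807 to -0.094. The 13 and the 9 come without PGC replicate 1 of 36 hpf. Without soma replicate 1 of 36 hpf, 1 was lower in PGCs at 36 hpf. At 24 hpf between the cell types, and between stages in soma, counts stayed at 0, and medians lay from -0.22 to -0.024 and from 0.037 to 0.209.

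Deviations from the group means correlated between same-numbered PGC and soma libraries by 0.239, 0.079, 0.18 and 0.282 at 4, 7, 24 and finally 36 hpf, and no label ties same-numbered libraries, so the numbers were not taken as pairs. Fits with a replicate block called 0 of the 83 genes in any contrast. The block was set per stage for contrasts of cell types and common to all stages for contrasts of stages. Of all genes 0.00971% were called lower and 0.034% higher in PGCs at 24 hpf, and 0.102% and 0.714% at 36 hpf. Between the stages 0.442% were called lower and 0.0243% higher at 36 hpf in soma, and 1.95% and 0.306% in PGCs. The medians of the 83 were -0.12 at 24 hpf, -0.584 at 36 hpf, -0.044 in soma and -0.318 in PGCs. Depth limits genes of few counts: at 4 hpf, 3 counts are up to 1.06 CPM.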
